A study of Mus musculus with 5 samples.

Results

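The cells described here are the OT-I CD8+ T cells with the most Klf2 transcript after 72 h of co-culture with peptide-loaded dendritic cells (DCs) and no myeloid-derived suppressor cells (MDSCs). OT-I cells are mouse T cells whose transgenic receptor recognises the ovalbumin peptide SIINFEKL presented on H-2Kb. The cells of this library were ranked by their Klf2 value, and the highest 25%, 481 of 1926 cells, was compared with the 744 cells with a Klf2 value of 0 in the table of 72 h. The other 701 cells lay between them and entered no ratio. The whole series holds 13629 cells. Because Klf2 chose the cells, its own values are a description of that choice, and every other gene is reported as a difference in size between both sets of cells.

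KLF2 is a zinc-finger transcription factor of quiescent T cells. It is known to drive S1pr1, the receptor with which T cells leave lymph nodes along a sphingosine-1-phosphate gradient. Signals from the T cell receptor, from IL-2 and through PI3K and AKT lower Klf2, and activated CD8 T cells can regain it as these signals wane. KLF factors bind short CACCC-type sequences in DNA.

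All cells came from spleen and lymph nodes of C57BL/6-Tg(TcraTcrb)1100Mjb/J mice and were sorted for CD8+ T cells before droplet-based single-cell RNA sequencing. Listed by time, the libraries were 0 h, 24 h with DCs, 24 h with DCs and MDSCs, 72 h with DCs, and 72 h with DCs and MDSCs, all with the same transgenic receptor. Each was a single library, the sources used here give neither the age of the animals nor the number of animals or cultures behind a library, and the T cells of every culture library met peptide-loaded DCs. Cells of 1 library are not replicates, so no test was run, no p-value is given, and each ratio describes these cells only.

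Values are whole numbers that were adjusted for depth before deposit, so how many molecules were sequenced in a cell is unknown. A level is the summed adjusted value of a gene per 1000000 of the summed values of the group (adjusted CPM), and a log2 ratio is the level in Klf2-high cells over that in Klf2-zero cells. An exact 95% binomial interval after a share of cells covers counting error only, and a value of 0 in a cell does not mean that the transcript was absent. It can also depend on the adjustment: in the separately adjusted table of all time points Klf2 was at 398 CPM in the Klf2-high cells and 2.39 CPM in the Klf2-zero cells.

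In the Klf2-high cells the adjusted Klf2 value ran from 3 to 22, with a median of 5 and a mean of 6.16 ± 2.63 (SD over 481 cells). At the edge of this set, 21 cells inside it and 152 cells outside it shared the value 3, with the choice between them set by file order, and the other 460 cells inside lay above it. The level of Klf2 was 389 CPM in the Klf2-high cells. In the table of all time points its level was 947 CPM at 0 h, 20.5 CPM at 24 h with DCs and 140 CPM at 72 h with DCs. At 24 h with MDSCs it was 10.96 CPM and at 72 h with MDSCs 22.7 CPM. Klf2 was recorded in 99.3% of the cells at 0 h, in 11.1% at 24 h with DCs and in 60.6% (58.4 to 62.8%) at 72 h with DCs. The 72 h library with MDSCs had it in 18.4% of cells (17.4 to 19.5%). Klf2-high cells are therefore the upper end of a transcript that most cells of this library carried.

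**Figure D1:**
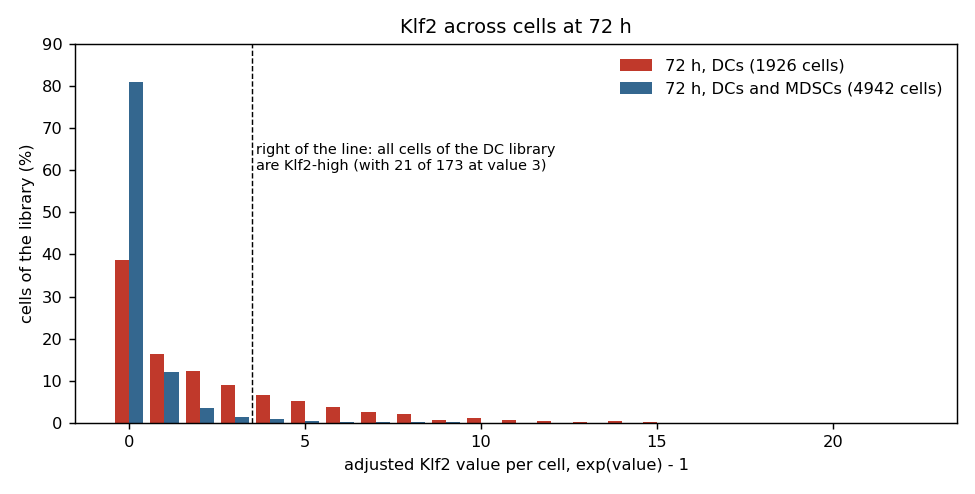
Percentage of the cells of each 72 h library (vertical axis) at each adjusted Klf2 value (horizontal axis), with red bars for the library with DCs (1926 cells) and blue bars for the library with DCs and MDSCs (4942 cells). Cells right of the dashed line, with 21 of the cells at value 3, are the 481 Klf2-high cells. In the library with MDSCs most cells are at 0.

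Markers of CD8 T cells were present in both sets and lay within 1.5-fold of each other. Cd8a was at 430 CPM in Klf2-high cells and 418 CPM in Klf2-zero cells, and was recorded in 99.2% and 97.0% of them. Cd3e was at 323 and 304 CPM, and Cd8b1 at 900.2 and 703 CPM, in the same order. Rare markers of another cell type are those above 0 in at most 5% of the cells of this library. Cells with 3 or more of them numbered 1 of 481 Klf2-high and 1 of 744 Klf2-zero cells. That limit by itself keeps these counts low, so they do not show that transcripts of other cells were absent. The summed levels of the rare markers were low in both: 4.73 and 6.81 CPM for dendritic cells, 4.08 and 5.30 CPM for monocytes and granulocytes, 4.34 and 5.72 CPM for B cells, 3.02 and 8.83 CPM for NK cells, 1.58 and 1.85 CPM for CD4 and regulatory T cells, and 1.31 and 1.43 CPM for erythroid cells and platelets. Of the dendritic cell markers used, 2 of 7 were at 0 in the Klf2-high cells, as were 6 of 13 for monocytes and granulocytes, 3 of 6 for B cells, 1 of 6 for NK cells, 0 of 3 for CD4 and regulatory T cells, and 2 of 6 for erythroid cells and platelets. Batf3, Cd7 and Tnfrsf4, described below, are also in the marker lists of dendritic, NK and CD4 T cells, though too widely recorded here to count as rare. So are the dendritic cell markers H2-Ab1, at 303 CPM in Klf2-high cells and 221 CPM in Klf2-zero cells, and Cst3, at 152 and 147 CPM. H2-Ab1 was recorded in 91.5% and 85.9% of the cells. The part of other cells in the levels and ratios of these genes was not tested. A barcode that also occurred in another library was carried by 13 of the 481 and 15 of the 744 cells.

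Fewer genes were recorded per cell in the Klf2-high set, with a median of 3004 genes against 3328 in Klf2-zero cells. Its median adjusted total was also lower, at 15500 against 16229.5 per cell. Mitochondrially encoded transcripts made up 1.47% of the Klf2-high total and 1.83% of the Klf2-zero total. Genes with symbols that begin with Rpl or Rps made up 38.5% and 37.5%.

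At 50 CPM or more in either set, 39 genes apart from Klf2 were at least 1.5-fold higher in Klf2-high cells, 1.68% of the 2315 genes compared, and 52 were at least 1.5-fold lower, 2.25%. The median log2 ratio of all 2315 genes was -0.04. With ratios centred on their median the counts were 47 higher and 41 lower, so which direction held more genes depended on the centring. When ratios were taken within 3 groups of cells of equal number, split by the number of genes recorded, and then averaged, 27 genes were higher and 23 were lower, and all 23 were among the 52. The part that the number of genes per cell plays in the lower genes was not tested beyond that.

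Receptors and signalling genes of lymphocytes were among the 12 largest higher ratios. The largest ratio at 50 CPM or more was that of Lgals3, which encodes the carbohydrate-binding protein galectin-3, at 246 CPM in Klf2-high cells and 105 CPM in Klf2-zero cells (log2 ratio 1.23). S1pr4, a second sphingosine-1-phosphate receptor of lymphocytes, followed at 133 and 65.2 CPM (1.03). Arl5c, an ARF-like GTPase gene, was at 104 and 51.2 CPM (1.02). Slamf6, a self-ligand receptor that marks T cells with memory or stem-like potential, was at 56.0 and 27.7 CPM (1.02). Txk, a TEC-family kinase of resting T cells, was at 66.3 and 34.4 CPM (0.95).

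The remaining 7 of the 12 largest higher ratios lay between 0.83 and 0.94. They were those of Gm8369, of Cdc25b, a phosphatase of mitotic entry, of Sike1, of Pglyrp1, a peptidoglycan-binding protein, of Tsc22d3, the glucocorticoid-induced leucine zipper factor and a FOXO target, of Cd7, a surface receptor of T and NK cells, and of Vps37b, a subunit of the ESCRT-I sorting complex. Cd7 was recorded in 30.8% of Klf2-high cells (26.7 to 35.1%) and 14.1% of Klf2-zero cells (11.7 to 16.8%). Slamf6 lies over Gm37065, Cdc25b over Spef1 and Vps37b over Hip1r on the opposite strand in GENCODE, and the sources used here do not say whether reads were counted by strand.

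Among the lower genes the largest ratio was that of Batf3, an AP-1 family factor induced in activated T cells, at 14.3 CPM in Klf2-high cells and 62.2 CPM in Klf2-zero cells, 4.34-fold lower (log2 ratio -2.12). Cish, an inhibitor of cytokine signalling induced by STAT5, was at 19.5 and 51.3 CPM (-1.40). In GENCODE Cish lies over Gm17041 on the opposite strand, so the same limit on strand holds for it. Tnfrsf4, the costimulatory receptor OX40, was at 67.6 and 162 CPM (-1.26). Nolc1, a chaperone of small nucleolar ribonucleoproteins, was at 28.7 and 70.6 CPM (-1.30), and Srm, spermidine synthase, at 42.1 and 98.0 CPM (-1.22).

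The other 7 of the 12 largest lower ratios lay between -1.32 and -0.91. Hemk1, a neighbour of Cish on chromosome 9 that does not overlap it, was at 33.1 and 82.7 CPM. The rest were Nop58, a core protein of box C/D small nucleolar ribonucleoproteins, Asns, asparagine synthetase, Mat2a, which makes S-adenosylmethionine, Odc1, the ornithine decarboxylase that opens polyamine synthesis, Cd160, a receptor of activated CD8 T and NK cells, and Hspa5, the BiP chaperone of the endoplasmic reticulum. Odc1, at 95.5 and 182 CPM (-0.93), and Srm encode enzymes of the same polyamine pathway.

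**Figure D2:**
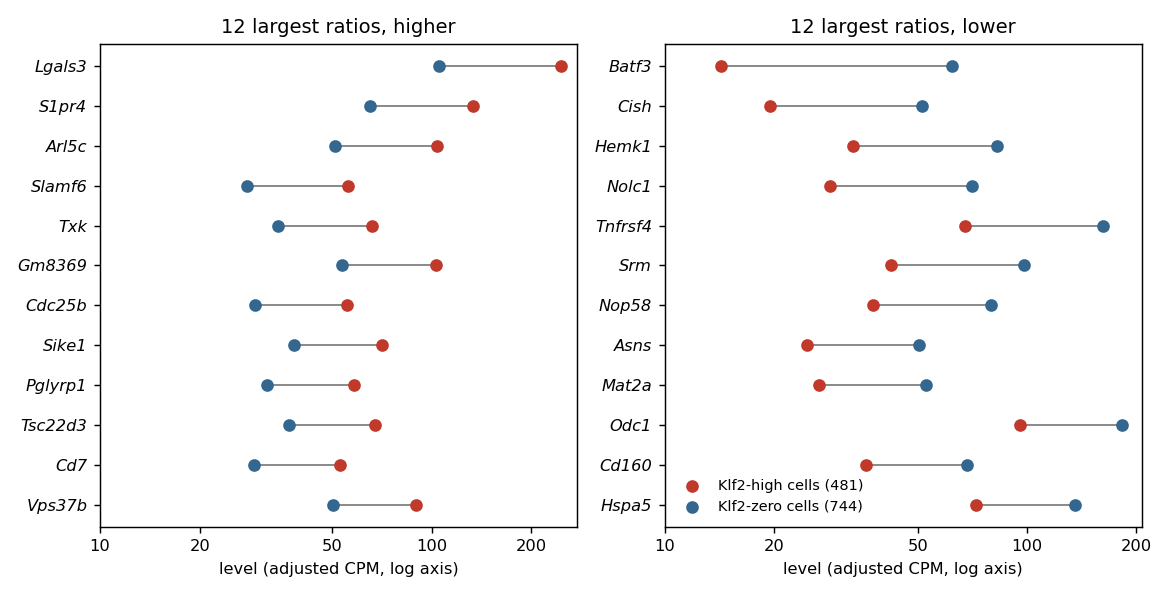
Levels in adjusted CPM (horizontal log axis) of the 12 genes with the largest ratio on each side, in the 481 Klf2-high cells (red) and the 744 Klf2-zero cells (blue) at 72 h with DCs. Lgals3 stands at 246 against 105 CPM and Batf3 at 14.3 against 62.2 CPM.

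The promoters of 3 higher genes and of the gene with the largest lower ratio are given as examples, with the KLF core sequence marked where it occurs. Whether the sequence bears on any ratio was not tested. Each line gives the 250 bases before the RefSeq start in GRCm38.p6, on the strand of the gene, and capitals mark CACCC or its other-strand form GGGTG.
S1pr4, chr10:81500138-81500387, minus strand: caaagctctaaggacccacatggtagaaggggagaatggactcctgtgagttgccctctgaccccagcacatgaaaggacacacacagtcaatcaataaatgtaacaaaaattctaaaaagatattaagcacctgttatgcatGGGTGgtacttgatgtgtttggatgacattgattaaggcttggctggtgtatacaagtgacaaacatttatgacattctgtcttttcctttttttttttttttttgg
Txk, chr5:72752778-72753027, minus strand: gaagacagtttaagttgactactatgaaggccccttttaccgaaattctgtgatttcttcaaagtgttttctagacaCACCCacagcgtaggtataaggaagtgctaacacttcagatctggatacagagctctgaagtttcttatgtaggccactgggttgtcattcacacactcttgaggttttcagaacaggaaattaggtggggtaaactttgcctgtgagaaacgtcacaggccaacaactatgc
Slamf6, chr1:171917212-171917461, plus strand: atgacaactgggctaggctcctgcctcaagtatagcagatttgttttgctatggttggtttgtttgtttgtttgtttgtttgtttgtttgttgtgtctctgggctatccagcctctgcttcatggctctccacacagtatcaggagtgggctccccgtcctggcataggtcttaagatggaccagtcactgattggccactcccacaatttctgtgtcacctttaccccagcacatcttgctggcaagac
Batf3, chr1:191098164-191098413, plus strand: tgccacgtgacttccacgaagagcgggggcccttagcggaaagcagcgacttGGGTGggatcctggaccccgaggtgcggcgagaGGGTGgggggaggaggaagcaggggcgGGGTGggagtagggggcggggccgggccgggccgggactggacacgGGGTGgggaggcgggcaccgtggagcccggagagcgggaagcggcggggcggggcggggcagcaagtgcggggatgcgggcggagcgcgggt

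The S1pr4 and Txk windows each hold 1 match, the Slamf6 window holds 0, and that of Batf3, a lower gene, holds 4. Over 300-base windows that run from 250 bases before to 50 bases after a start, CACCC on either strand was found in 9 of 11 promoters (81.8%) of the 8 genes in the RefSeq table among the 12 with the largest higher ratios. It was found in 7 of 12 promoters (58.3%) of 11 of the 12 lower genes, and in 18895 of all 32851 promoters (57.5%). Some genes have more than 1 promoter there, Tsc22d3 and Txk among the higher ones. Counted by gene, it was found for 7 of 8 higher genes, 6 of 11 lower genes and 16166 of all 27025. A motif this short is common, and a match is a description of these letters and no binding site.

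The homing genes differed in size within the list. For the lists, members at 10 CPM or more in either set are counted. Of all 6596 genes at that level, 107 (1.62%) were 1.5-fold higher and 522 (7.91%) were 1.5-fold lower, with a median log2 ratio of -0.12. Of 25 homing and egress genes, 6 were higher and 1 was lower, with a median of 0.34. S1pr1 (chromosome 3, 115710433 to 115715072, minus strand, GRCm38) was at 27.7 CPM in Klf2-high cells and 8.16 CPM in Klf2-zero cells, 3.40-fold higher (log2 ratio 1.77). It was recorded in 31.8% (27.7 to 36.2%) and 11.3% (9.11 to 13.8%) of them. This textbook target of KLF2 thus stood at a low level in this library and had a larger ratio than any of the 39 higher genes.

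S1pr4 was the most widely recorded of the receptors that were higher, in 79.8% (76.0 to 83.3%) of Klf2-high cells and 56.0% (52.4 to 59.7%) of Klf2-zero cells. Also higher in the list were Rasa3, a Ras and Rap GTPase-activating protein, at 32.0 and 12.3 CPM (log2 ratio 1.38), Ccr9, the gut-homing chemokine receptor, at 24.2 and 9.84 CPM (1.30), and Rasgrp2, an activator of Rap1 and with it of integrins, at 283 and 161 CPM (0.81). Ccr7, the lymph node chemokine receptor, was abundant and nearer to even, at 304 and 240 CPM (0.34). Itgb7, the beta7 integrin chain, was at 308 and 220 CPM (0.49).

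The adhesion and retention receptors of the list lay on both sides. Itga4, the alpha4 integrin chain, was at 38.8 CPM in Klf2-high cells and 26.4 CPM in Klf2-zero cells (0.56), and Cxcr4, which retains cells in bone marrow, at 17.8 and 13.3 CPM (0.42). Itgb1, the beta1 integrin chain, was at 18.9 and 29.5 CPM and was the 1 lower member (log2 ratio -0.64). Cd44, the hyaluronan receptor of activated T cells, was at 21.2 and 31.6 CPM, just inside the limit (-0.58). Cd69, which binds S1PR1 protein and takes it off the surface, was at 37.3 and 37.7 CPM (-0.01).

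Factors of naive and memory T cells were mostly above a ratio of 1. Of 32 measured members of this list, 25 were above it, 9 were 1.5-fold higher and 0 were 1.5-fold lower, with a median log2 ratio of 0.40. Tcf7, the factor TCF-1 of naive and memory T cells, was at 89.9 CPM in Klf2-high cells and 61.2 CPM in Klf2-zero cells (0.56), and was recorded in 57.0% (52.4 to 61.4%) and 45.4% (41.8 to 49.1%). Tmem71 was at 34.5 and 16.6 CPM (1.05), and Ms4a4b, a CD20-related membrane protein of naive T cells, at 597 and 371 CPM (0.68).

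The receptor gene Il7r, also a FOXO1 target and a marker of naive and memory cells, did not share this direction. Il7r was at 34.7 CPM in Klf2-high cells and 47.8 CPM in Klf2-zero cells (-0.46), and was recorded in 31.2% (27.1 to 35.5%) and 42.2% (38.6 to 45.8%). Id3 was at 50.6 and 64.0 CPM (-0.34), and Bcl2 at 333 and 387 CPM (-0.22). Of 13 genes restrained by PI3K and AKT through FOXO, 4 were higher and 0 lower, with a median of 0.43. S1pr1, which is also in the homing list, Tsc22d3 and Trib2 were among them.

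Of 6 measured members of the KLF list, which also takes in Sp1 and Sp3, 1 was 1.5-fold higher. Klf3, a repressor that binds the same CACCC elements, was at 19.2 CPM in Klf2-high cells and 8.07 CPM in Klf2-zero cells (log2 ratio 1.25), and was recorded in 22.04% (18.4 to 26.0%) and 11.02% (8.86 to 13.5%). Klf13 was at 130 and 94.0 CPM (0.47), Klf6, an immediate early member, at 64.6 and 65.6 CPM (-0.02), and Klf7 at 25.4 and 37.8 CPM (-0.57).

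Genes of receptor signalling and IL-2 were lower in part. Most of all genes at 10 CPM or more were below a ratio of 1, with a median of -0.12. Of 21 genes induced by the T cell receptor, 18 were below a ratio of 1, with a median of -0.17, near that of all genes. Only 4 passed 1.5-fold, all lower. They were Tnfrsf4, Myc at 26.0 CPM in Klf2-high cells and 47.3 CPM in Klf2-zero cells (-0.86), Il2ra, the high-affinity IL-2 receptor chain, at 94.1 and 146 CPM (-0.63), and Egr1 at 11.7 and 17.6 CPM (-0.59). Members such as Nfkbia, Tnfrsf9 and Irf4 lay within 1.5-fold.

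Of 21 IL-2 and STAT5 genes, 6 were lower and 0 higher, with a median of -0.22. Besides Cish and Il2ra they were Tnfrsf8, which encodes CD30, at 3.29 and 17.2 CPM (-2.38), Bcl2l1, the anti-apoptotic BCL-xL gene, at 9.60 and 22.3 CPM (-1.21), Osm at 11.8 and 19.3 CPM (-0.70) and Socs2 at 18.4 and 29.5 CPM (-0.68). The receptor chains Il2rb, at 171 and 152 CPM, and Il2rg, at 85.1 and 81.5 CPM, were close to even. Genes of the receptor complex and its kinases did not pass in either direction, with 0 of 23 members higher and 0 lower.

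Ribosome biogenesis and MYC target genes lay on the lower side throughout. All 41 measured members were below a ratio of 1, 24 were 1.5-fold lower and 0 higher, and the median log2 ratio was -0.73 against -0.12 for all genes at that level. The nucleolar genes Nolc1, Nop58, Ppan at 13.4 CPM in Klf2-high cells and 30.5 CPM in Klf2-zero cells (-1.19), and Nop16 at 16.6 and 34.8 CPM (-1.07) were among the lowest. Abundant members differed less: Npm1 was at 3167 and 3190 CPM (-0.01), Eif5a at 971 and 1303 CPM (-0.42), Ncl at 687 and 829 CPM (-0.27) and Nme1 at 441 and 599 CPM (-0.44), all 4 within 1.5-fold. Of 100 measured genes with symbols that begin with Rpl or Rps, which are the ribosomal protein genes together with pseudogenes and S6 kinase genes, 0 passed 1.5-fold either way and the median was 0.03.

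Amino acid supply had a larger share of lower members than all genes at that level, and lipid synthesis a share near that of all genes. Of 25 genes of the integrated stress response and amino acid supply, 7 were lower and 1 higher, with a median of -0.36. The large neutral amino acid transporter gene Slc7a5 was at 16.7 CPM in Klf2-high cells and 39.3 CPM in Klf2-zero cells (-1.23), its partner Slc3a2 at 72.1 and 111 CPM (-0.62), and the arginine and lysine transporter gene Slc7a1 at 9.86 and 19.8 CPM (-1.01). Ddit3, the stress factor CHOP, was the higher member, at 53.8 and 33.2 CPM (0.70).

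Of 30 cholesterol and fatty acid synthesis genes, 28 were below a ratio of 1 and 3 were 1.5-fold lower. Their median was -0.25, against -0.12 for all genes at 10 CPM or more, most of which were also below a ratio of 1. That count of 3 is close to the 7.91% of all genes. Fasn, fatty acid synthase, was at 28.3 CPM in Klf2-high cells and 51.6 CPM in Klf2-zero cells (-0.87). Glycolysis had 0 higher and 1 lower of 22 members and a median of -0.03, with Gapdh at 8350 and 7343 CPM (0.19). Nuclear genes of oxidative phosphorylation had 0 higher and 1 lower of 51 members and a median of -0.07.

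The 13 mitochondrially encoded genes were all below a ratio of 1, with a median of -0.34. Of these, 2 passed 1.5-fold, mt-Nd1 at 851 CPM in Klf2-high cells and 1450 CPM in Klf2-zero cells (-0.77) and mt-Nd3 at 52.6 and 79.2 CPM (-0.59). The mitochondrial share of the total given above, 1.47% and 1.83%, is the sum of these same 13 genes and no separate observation. The cause of the difference was not tested.

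**Figure D3:**
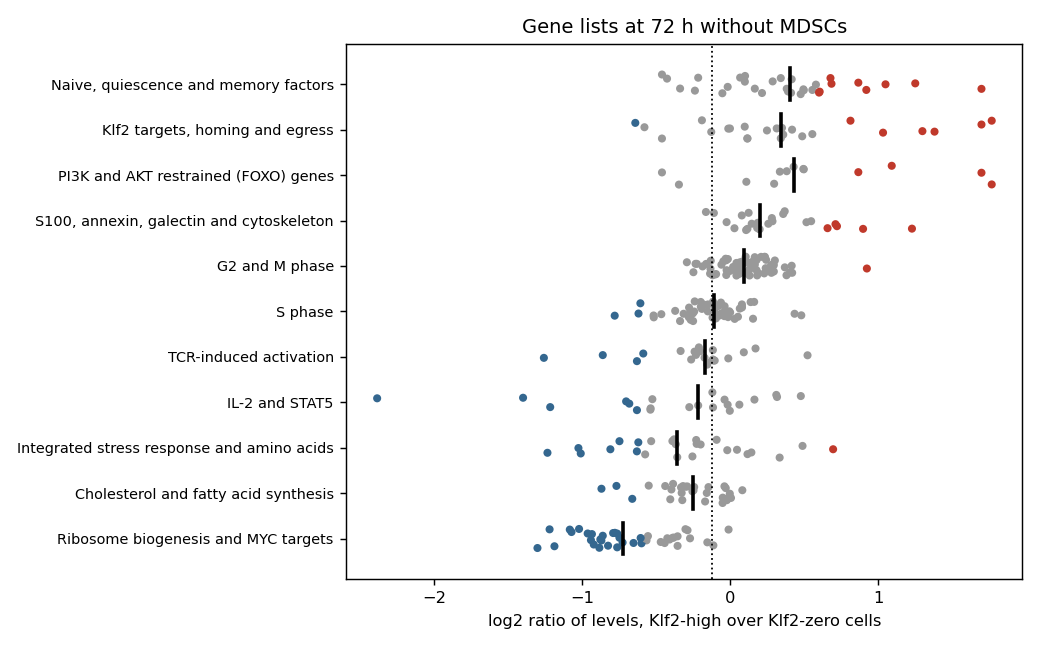
Each point is a gene of the named list at 10 CPM or more in either set, at its log2 ratio of levels in Klf2-high over Klf2-zero cells (horizontal axis). Red points are 1.5-fold higher and blue points 1.5-fold lower. Black bars are list medians and the dotted line is the median of all genes at that level, -0.12. Ribosome biogenesis lies at -0.73 with every member below 0, and the naive and memory list at 0.40.

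Cell cycle genes were close to even. Of 51 S phase genes, 0 were higher and 3 lower (median -0.11), and of 68 G2 and M phase genes, 1 was higher and 0 lower (median 0.10). Mki67, a marker of cycling cells, was at 141 CPM in Klf2-high cells and 128 CPM in Klf2-zero cells (0.15), and was recorded in 71.7% and 67.2% of them. Cdc25b was the higher G2 and M phase member. None of 17 histone genes passed in either direction, that is 0 higher and 0 lower. The summed G2 and M phase value per cell had a median of 158 in Klf2-high cells and 137.5 in Klf2-zero cells, and that of S phase 61 and 68.

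Effector genes were mixed. Of 17 cytotoxic and effector genes, 2 were higher and 3 lower, with a median of -0.06. Gzmb, granzyme B, was the most abundant, at 1449 CPM in Klf2-high cells and 2103 CPM in Klf2-zero cells (-0.54), short of 1.5-fold, while Gzma was at 195 and 168 CPM (0.22) and Nkg7 at 1044 and 965 CPM (0.11). The lower members were Klrk1, the receptor NKG2D, at 34.2 and 54.2 CPM (-0.67), Gzmc at 5.52 and 13.96 CPM (-1.34), and Ccl5.

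The chemokine gene Ccl5 depended on how cells were weighted. It was at 53.4 CPM in Klf2-high cells and 94.6 CPM in Klf2-zero cells (-0.83), yet was recorded in a larger share of the Klf2-high cells, 27.86% against 20.03%. When each cell counted by its natural log value, so that single high cells weighed less, its log2 ratio was 0.54. The cytokine Lta was at 14.1 and 48.8 CPM (-1.79), and Ltb, its partner in the lymphotoxin heterotrimer, at 634 and 509 CPM (0.32).

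Other lists with higher members were those of the cytoskeleton and of cell death. Of 25 S100, annexin, galectin and cytoskeleton genes, 5 were higher and 0 lower, with a median of 0.20. With Lgals3 they were S100a4, S100a6 at 491 CPM in Klf2-high cells and 298 CPM in Klf2-zero cells (0.72), Anxa2 at 733 and 447 CPM (0.71) and Crip1 at 1753 and 1111 CPM (0.66). Of 15 BCL2 family and survival genes, 2 were higher and 3 lower. The higher ones, Bcl2l11, which encodes BIM, at 26.3 and 13.3 CPM (0.99), and Bbc3, which encodes PUMA, at 31.8 and 17.5 CPM (0.86), are pro-apoptotic. The lower ones were Bcl2l1, Bcl2a1b, another anti-apoptotic member, and Bid, a pro-apoptotic one.

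Inhibitory receptors gave 1 higher and 1 lower of 5. Vsir, which encodes VISTA, was at 75.3 CPM in Klf2-high cells and 48.4 CPM in Klf2-zero cells (0.64), Ctla4 at 171 and 124 CPM (0.46), and Cd160 at 36.0 and 68.4 CPM (-0.92). Of 31 interferon response genes, 2 were higher, Phf11b at 131 and 82.4 CPM (0.67) and Ifi27l2a at 587 and 374 CPM (0.65), and 1 was lower. None of 13 antigen presentation genes passed, with 0 higher and 0 lower.

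The remaining lists had few members past the limit. Of 24 hypoxia genes, Anxa2 and Ankrd37, at 284 CPM in Klf2-high cells and 186 CPM in Klf2-zero cells, were higher and 0 were lower (median 0.18). Cell cycle inhibitors and p53 targets had 3 higher and 3 lower of 21 (median -0.01): Bbc3, Trp53inp1 and Btg2 were higher, while Aen, Phlda3 and Zmat3 were lower. Immediate early genes had 1 higher and 2 lower of 15 (median -0.02), and genes of mRNA decay 1 higher and 0 lower of 19 (median 0.13). Metallothionein and redox genes had 0 higher and 1 lower of 21 (median -0.10), and TGF-beta genes 0 higher and 1 lower of 6, Serpine2 at 8.81 and 20.6 CPM (median -0.24).

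The levels were also read along the Klf2 value. Cells with Klf2 above 0 in the adjusted table were split into 3 equal groups of 394 cells, with Klf2 from 1 to 2, from 2 to 4 and from 4 to 22. Of the 39 higher genes, 36 increased at every step from the cells at 0 to the high group, and of the 52 lower genes 48 decreased at every step. Among all 2315 genes, 368 (15.9%) increased and 557 (24.1%) decreased at every step. These shares cannot be set against each other, because the genes were chosen by the ratio between the ends, the high group lies within the Klf2-high set and the middle group holds the rest of that set. The levels below are a description.

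S1pr1 stood at 8.16 CPM in cells at 0, then at 12.2, 18.2 and 28.6 CPM in the low, middle and high groups. Along the same steps Slamf6 stood at 27.7, 38.0, 48.4 and 58.4 CPM. Both genes had intermediate levels in cells of intermediate Klf2. Batf3 ran the other way, at 62.2, 46.6, 24.0 and 13.02 CPM, and Srm at 98.0, 76.6, 55.5 and 40.2 CPM. Klf3 differed little at the first step, at 8.07 and 8.55 CPM, and then stood at 13.9 and 19.5 CPM. The median number of genes recorded per cell was 3328, 3330.5, 3174 and 2983 along the same steps.

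**Figure D4:**
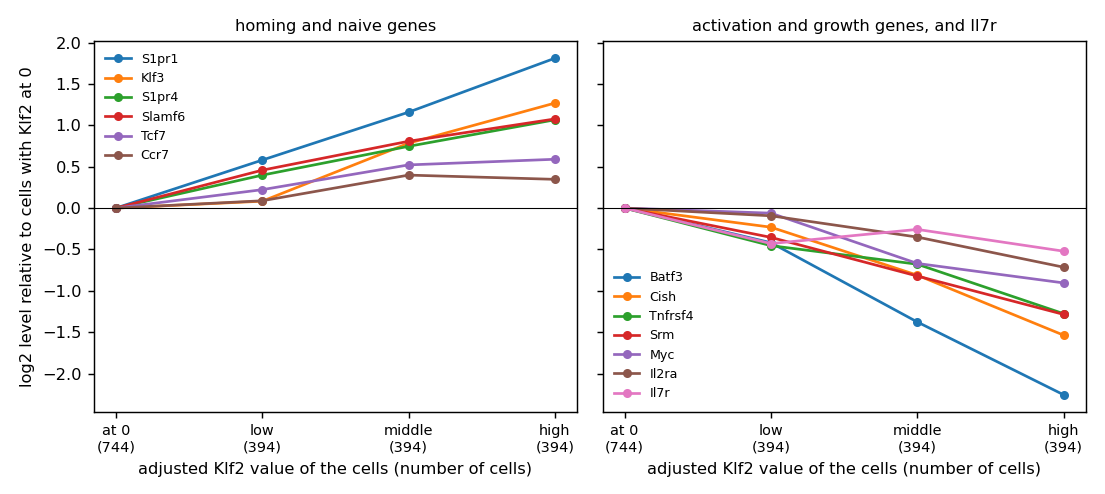
Log2 level relative to the cells with Klf2 at 0 (vertical axis) in cells grouped by adjusted Klf2 value (horizontal axis: 744 cells at 0, then low, middle and high groups of 394 cells each). Left, homing and naive genes: S1pr1 stands at 8.16 CPM at 0 and 28.6 CPM in the high group. Right, activation and growth genes with Il7r: Batf3 stands at 62.2 and 13.02 CPM.

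Because fewer genes were recorded in Klf2-high cells, the ratios were also read within each of these 3 groups of cells split by genes recorded. They held 200, 177 and 104 Klf2-high cells and 226, 216 and 302 Klf2-zero cells, from few to many genes. The log2 ratio of S1pr1 was 1.89, 2.19 and 0.78 in these groups. That of S1pr4 was 0.42, 1.16 and 1.46. S1pr4 was thus short of 1.5-fold in the cells with the fewest genes. Tcf7 was at 0.41, 0.32 and -0.05, so its difference was not seen in the cells with the most genes. Batf3 was at -1.78, -1.60 and -1.82, and Srm at -0.88, -0.78 and -0.99. The ribosome biogenesis median was -0.42, -0.49 and -0.37, smaller than the -0.73 over all cells. The homing median was 0.04, 0.29 and 0.37, against 0.34 over all cells, and that of the naive and memory list 0.19, 0.25 and 0.33, against 0.40. Slamf6 was at 0.57, 1.20 and 1.06, short of 1.5-fold in the cells with the fewest genes. Within 3 groups split by summed cell cycle value the ribosome biogenesis median was -0.60, -0.60 and -0.65.

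The 72 h library with MDSCs was not used to choose the genes, and the same split was made there. Only 945 of its 4942 cells had Klf2 above 0, fewer than 25% of the library (1235 cells), so the 176 cells at an adjusted Klf2 value of 3 or more, the lowest value among the Klf2-high cells, were compared with 3997 cells at 0. Klf2 was at 289 CPM in the 176 cells. Fewer genes were recorded in them too, with a median of 2699 per cell against 3131 in the 3997 cells. Of 2222 genes, 67 (3.02%) were 1.5-fold higher and 79 (3.56%) were 1.5-fold lower. With fewer cells on the high side, chance variation between cells weighs more in these ratios.

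Of the 39 genes higher without MDSCs, 15 were also higher with MDSCs, 38.5% of the first list and 22.4% of the 67. Of the 52 lower genes, 21 were also lower, 40.4% of the first list and 26.6% of the 79. The ratio had the same sign in both libraries for 36 of the 39 and 49 of the 52 genes, and for 1797 of all 2315. These shares cannot be set against each other. The 39 and 52 genes were chosen for large ratios, and small ratios change sign easily. The median log2 ratio with MDSCs was 0.58 over the 39 genes and -0.56 over the 52, against -0.02 over all. At 50 CPM or more with MDSCs, 25 of the 39 and 45 of the 52 genes could be compared. The sign counts and medians took in the genes under that level too.

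S1pr1 was at 17.5 CPM in the 176 cells and 5.56 CPM in the 3997 cells with MDSCs (log2 ratio 1.65), and was recorded in 20.5% (14.8 to 27.2%) and 8.16% (7.33 to 9.05%). The log2 ratio of S1pr4 was 1.32, of Slamf6 1.65, of Txk 1.58 and of Klf3 1.27. Each of these 5 was past 1.5-fold in both libraries. Cd7 had the largest ratio of the 12, at 25.9 and 3.34 CPM (2.95), and Ccr7 stood at 211 and 105 CPM with MDSCs, a wider gap than the 304 and 240 CPM without them.

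The lower genes Batf3 (log2 ratio -1.83), Tnfrsf4 (-1.82), Cish (-1.37), Nolc1 (-0.99) and Srm (-0.96) were lower with MDSCs too. In the ribosome biogenesis list 26 of 41 members were lower and 0 higher with MDSCs, with a median of -0.70, where 2.79% of all 6174 genes at 10 CPM were higher and 12.3% lower. The naive and memory list had 15 of 29 members higher, with a median of 0.65, and the FOXO list 7 of 13, with a median of 0.94. Within the same 3 groups the naive and memory median was 0.43, 0.58 and 0.48.

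Some genes did not carry over. Lgals3 was at 35.4 and 28.1 CPM with MDSCs (0.33), S100a6 had a log2 ratio of -0.01, mt-Nd1 of -0.05 and Il7r of 0.08. Ccl5 was at 19.7 and 9.61 CPM (1.03) and Klrk1 had a log2 ratio of 0.51, both of the opposite sign to the library without MDSCs. Whether any ratio differs between the libraries could not be tested with 1 library each.

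**Figure D5:**
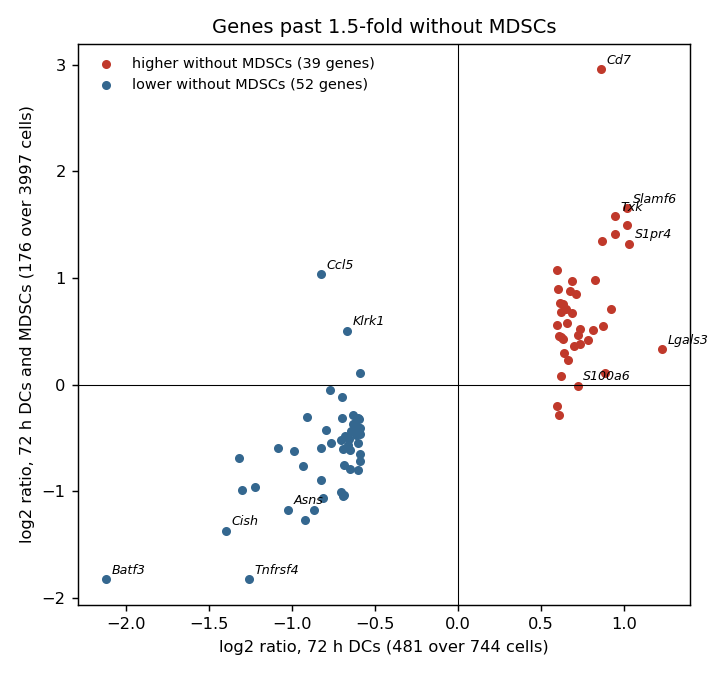
Log2 ratio of Klf2-high over Klf2-zero cells at 72 h with DCs (horizontal axis, 481 over 744 cells) and the ratio of the same split at 72 h with DCs and MDSCs (vertical axis, 176 over 3997 cells) for the 39 higher genes (red) and the 52 lower genes (blue). The sign is the same in both libraries for 36 and 49 of them. Ccl5 and Klrk1 lie above 0 on the vertical axis only.

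The unstimulated cells give a scale for these levels, read from the table of all time points. Of the 39 higher genes, 32 were 1.5-fold higher at 0 h than at 24 h with DCs and 3 were lower, where 22.8% of all 2311 genes in both tables were higher. Of the 52 lower genes, 45 were lower at 0 h than at 24 h and 3 higher, where 31.5% of all were lower. The median log2 ratio of 0 h over 24 h was 2.37 for the 39 genes, -1.33 for the 52 and -0.15 for all. The 0 h values scattered little for some genes: in 58 of those at 50 CPM and above, the variance across cells was less than 0.5 of the mean, among them 0 of the 39 and 2 of the 52.

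The homing receptors of the Klf2-high cells stood on either side of their level in unstimulated cells. S1pr1 was at 98.5 CPM at 0 h, 3.46 CPM at 24 h with DCs and 15.9 CPM in the whole 72 h library with DCs, and at 29.0 CPM in its Klf2-high cells. S1pr4 was at 111, 17.2 and 94.5 CPM, and at 136 CPM in the Klf2-high cells, above its 0 h level. Tcf7 was at 317, 131 and 78.7 CPM, and at 94.6 CPM in the Klf2-high cells.

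The lower genes that are named here took different courses over time. Batf3 was listed at 0 CPM at 0 h, was at 32.4 CPM at 24 h with DCs and 42.0 CPM at 72 h, and was at 14.8 CPM in the Klf2-high cells. Tnfrsf4 was at 2.01, 159 and 122 CPM at these times, and at 67.9 CPM in the Klf2-high cells. Srm was at 126, 855 and 71.3 CPM, and at 45.2 CPM in the Klf2-high cells, below the unstimulated level.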

How the data were processed

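Values were deposited on a natural log scale: in the authors' tables exp(value) - 1 is whole for each cell and gene, with 0 exceptions at a tolerance of 1e-06. The submitters' processing notes name Cell Ranger 2.0.1, Seurat and mm10. The whole numbers are not molecule counts, since their total per cell in the 72 h library with DCs had a coefficient of variation of 4.06%, so depth per cell is unknown. The sources used here do not say how they were adjusted. The table of 72 h was used for the Klf2 split, and the table of all time points, which was adjusted separately, for levels across libraries. The library of each cell is that of the deposited cell annotation.

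The adjusted value, exp(value) - 1, was summed per gene over the cells of a group and scaled to 1000000. Ties at the edge of the highest 25% of cells by Klf2 were taken by file order. Genes were counted at 1.5-fold and 50 CPM in either group, list members (30 gene lists and 6 marker lists) at 10 CPM. A marker of another cell type was used if it was above 0 in at most 5% of the cells at 72 h with DCs. The text names, each way, the 12 genes of largest ratio and, from each list, the 2 of largest ratio at 20 CPM, besides 15 genes fixed for every table. Some genes under this rule are not reported here. Other genes the text names were chosen after their values were seen. The members, lists and rules were chosen with earlier results of these data known. With MDSCs the highest 25% would have taken in 290 cells at 0, so the limit of 3 was set after the data were seen. Doublets were not treated and no cell was filtered. The ratio rule was tested on simulated data, drawn as independent random counts around the mean of each gene in this library. The simulated cells had no further variation between cells, no difference in genes recorded and no choice of cells by a gene. The test therefore checks the calculation only and not how far the ratios of these cells can be trusted. Shares have exact Clopper-Pearson 95% intervals. Gene positions are from GENCODE M21 (GRCm38, the assembly of mm10), and promoter sequences from RefSeq (GRCm38.p6). Python 3.11.15, numpy 2.4.6, pandas 2.3.3, scipy 1.17.1 and matplotlib 3.10.9 were used. The closing section gives the effect of the 13 alternatives.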

Additional observations from a re-analysis of the deposited data

How the results depend on the processing

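The counts of 39 higher and 52 lower genes moved most with the limits and with the choice of cells. They were 107 and 522 at 10 CPM, 11 and 3 at 200 CPM, and 4 and 8 at 2-fold. With totals taken without Rpl, Rps and mitochondrially encoded genes they were 59 and 107, with the highest 10% of cells by Klf2 62 and 106, and with every cell with Klf2 above 0 as the high group 5 and 16. Within the 3 groups by genes recorded they were 27 and 23. They moved by less than 1.5 times when each cell counted by its natural log value (41 and 52), ratios centred on their median (47 and 41), the table of all time points (42 and 35), ties in reverse file order (40 and 45), 3 groups by cell cycle value (38 and 42) and without cells with markers of other types (39 and 50). With MDSCs, where the counts were 67 and 79, they were 172 and 758 at 10 CPM, 15 and 2 at 200 CPM, 14 and 13 at 2-fold, 111 and 181 without these genes in the total, and 6 and 4 with every cell with Klf2 above 0, an alternative added after the data were seen. The lower count there was 52 in the table of all time points and 37 within those 3 groups. The cause of these moves was not tested. Of the 24 genes with the largest ratios, 17 stayed past 1.5-fold in all 10 alternatives that give a ratio per gene, and the other 7 were under it only with every cell with Klf2 above 0 as the high group. The ribosome biogenesis median ran from -0.85 to -0.43 over the alternatives, that of the naive and memory list from 0.29 to 0.44 and that of homing genes from 0.20 to 0.41. Levels from the mean natural log value reversed Ccl5 (log2 ratio 0.54) and the median of the cytokine and chemokine list (0.48), which rests on 3 genes. No paired analysis was possible because each group was 1 library and no test was run. Depth per cell is unknown, so low levels such as that of S1pr1 carry an error that could not be given.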
